A study of Rattus norvegicus with 6 samples.

Results

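Rab proteins are small GTPases that mark the membranes of the cell and decide which vesicle meets which compartment. The array files held 66 probes for 54 Rab genes, out of 30367 probes for genes of all kinds; these are the probes whose RefSeq accession has a rat gene symbol made of Rab, a number and at most a letter and a further digit. The symbols came from a RefSeq table of rat assembly GRCr8, which lists 58 such genes. Rab22a, Rab37, Rab42 and Rab44 were not analysed here because no probe carried their accession. The samples were primary Leydig cells, the testosterone-producing cells between the seminiferous tubules, of Sprague-Dawley rats, grown at 34 °C under 5% CO2 in F12/DMEM with 10% fetal bovine serum, penicillin and streptomycin. In the exosome group (3 samples) vesicles released by primary rat Sertoli cells were present at 5 µg/ml for 24 h, and the untreated group (3 samples) received none. Per the labels, RNA of each sample was labelled with Cy3 and read on a 1-colour Agilent array. The labels do not say whether the replicates came from separate animals or cultures, and the p-values cover just the spread among these 6 samples, which may be technical.

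A Rab protein switches between a GTP-bound form, which sits on a membrane and recruits effector proteins, and a GDP-bound form, which a carrier called GDI lifts off the membrane. Exchange factors turn it on, GTPase activating proteins turn it off, and a lipid tail that Rab geranylgeranyl transferase adds lets it anchor at all. Different family members work at different steps: uptake into early endosomes, recycling to the cell surface, delivery to late endosomes and lysosomes, secretion, and traffic between the endoplasmic reticulum and the Golgi. In a steroid-producing cell these routes bring in lipoprotein cholesterol and receptors, while the steroids themselves are not packed into secretory vesicles.

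Of the 54 Rab genes, 48 had a probe that was well above background in 3 or more of the 6 arrays, and these were tested. The others were Rab3a, Rab9b, Rab25, Rab27b and Rab40c, well above background on 0 arrays, and Rab17, on 1 array. Values are log2 processed signals relative to the 75th percentile of the gene spots of the same array, so 0 stands for that percentile, and a change is the exosome mean minus the untreated mean ± SE, with n = 3 per group. A gene is represented by its brightest tested probe, and it is said to rise or fall at an adjusted p below 0.05 (limma, Benjamini-Hochberg over all tested probes).

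Among the 48 tested Rab genes 14 rose, 12 fell and 22 missed the test. The rises count Rab20 and Rab6a by their brightest probes, although another probe of each fell. Over all 10971 tested genes 14.6% rose and 29.2% fell, 43.8% in either direction. The median change was 0.26 for the Rab genes and −0.19 for all tested genes. For 23 Rab genes every exosome array lay above every untreated array and for 13 every one lay below, while among all tested genes these shares were 24.1% and 37.9% (62% together). At a 2-fold minimum 0 Rab genes rose and 1 fell, beside 1.49% and 8.08% of all tested genes (9.56% together). The balance moved with the scaling: quantile normalization gave 17 rises and 7 falls (all genes 20.2% and 16.1%, 36.3% together, and a median of 0.0086), the authors' deposited values gave the same counts, taking the percentile over probes gave 19 and 10, and centring each array on its median gave 29 and 1 (all genes 33.8% and 7.99%, 41.8% together, with a median of 0.22). The 14 Rab genes that rose did so in all 6 scalings, whereas of the 12 that fell only Rab5b did, and no called Rab gene changed sign in a scaling. Median centring and the percentile over probes each add the same positive amount to every change. They can end falls but not rises by that shift, so these counts do not compare the firmness of rises and falls. The authors' values gave nearly the changes of quantile normalization and are not a separate check. The 11 falls that median centring ended were between −0.40 and −0.036 there. The normexp correction kept the 26 calls but moved the changes of 7 genes by over 1.5 times, to −0.48 for Rab3b, −0.37 for Rab4b, 0.61 for Rab6a, −0.33 for Rab11b, 0.33 for Rab23, −0.31 for Rab36 and −0.36 for Rab43. Rab5b was also the only one of the 26 to stay past the test in each of 6 fits that left out 1 array. The counts of rises and falls were 16 and 11 without untreated 1, 1 and 2 without untreated 2, 2 and 1 without untreated 3, 5 and 3 without exosome 1, 15 and 12 without exosome 2 and 8 and 7 without exosome 3. Arrays were left out singly, also where several are named together for a gene, and the fitted changes of called Rab genes moved by at most 0.18. The shares of all tested genes in these fits are not given. Whether the loss of calls is particular to Rab genes was not tested.

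**Figure D1:**
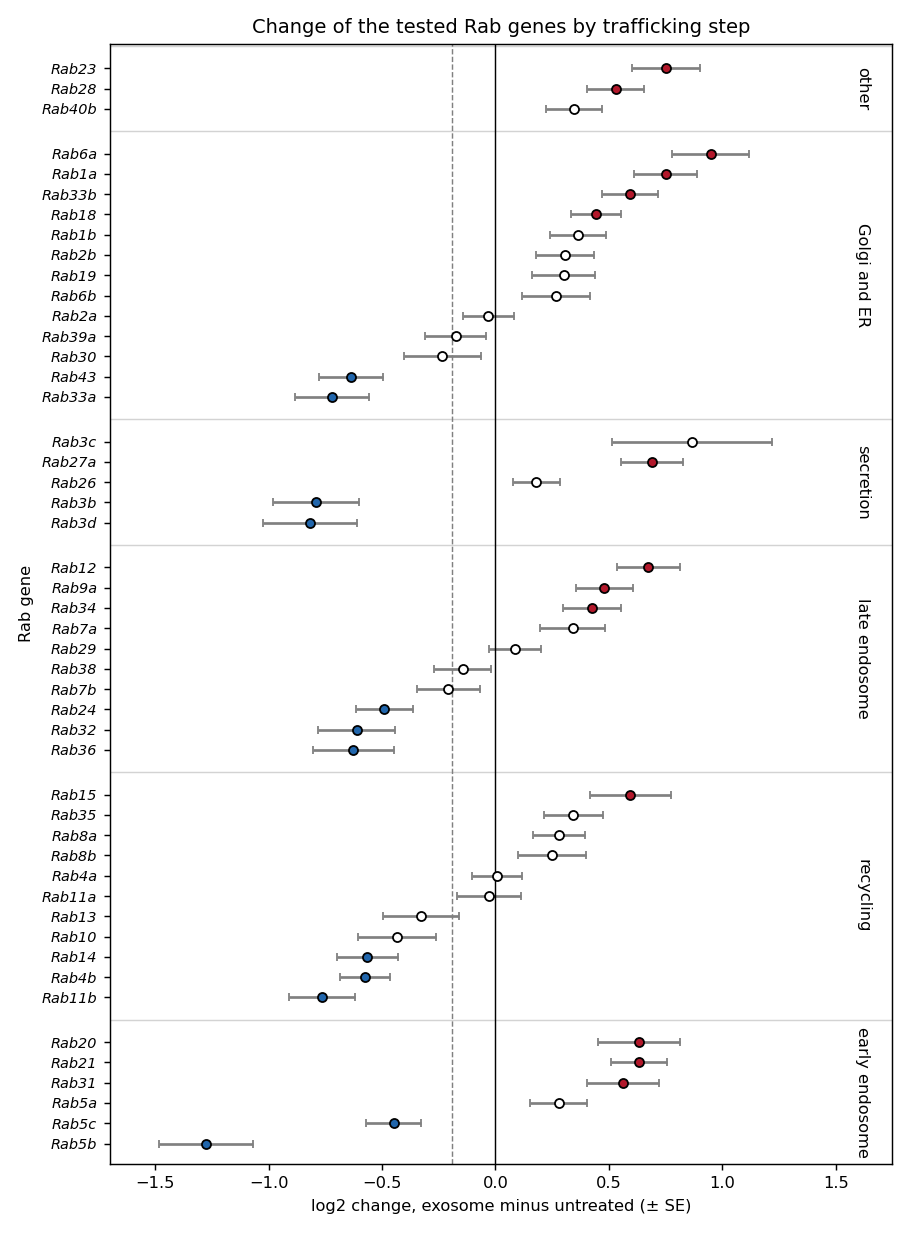
Change of each of the 48 tested Rab genes on the log2 scale (x axis, exosome minus untreated, points with SE bars, n = 3 arrays per group), grouped by the trafficking step at which the protein acts. Red points rose and blue points fell past the test, open points missed it, and the dashed line marks the median of all tested genes (−0.19). Each of the 5 steps holds both red and blue points, and Rab5b lies farthest to the left at −1.28.

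Per array, 67.2% to 75.6% of gene spots stood well above background, and 0 were saturated. Scan times put the 3 untreated arrays in 1 scan, exosome 1 and 2 in another and exosome 3 in a scan of its own, so scan and group cannot be told apart. With the scan as a random block 12 Rab genes rose and 12 fell. Each scan holds arrays of 1 group only, so this block cannot remove a scan difference between the groups. Calls kept or lost with it do not tell about the scan, and the share of all tested genes is not given for it. Of 8 Leydig cell markers, 4 (Star, Cyp11a1, Hsd3b1 and Insl3) were well above background on all arrays, while Lhcgr and Nr5a1, the luteinizing hormone receptor and the steroidogenic transcription factor, were so on none and Hsd17b3 on 1. All 12 macrophage markers, 6 peritubular markers and 5 stromal markers were well above background on all arrays, as were 5 of 9 Sertoli cell, 4 of 5 endothelial and 2 of 7 germ cell markers. The Sertoli markers Amh and Gata1, the endothelial marker Tek and the germ cell markers Ddx4, Prm1 and Sycp3 were well above background on no array. The summed signal of the peritubular markers was lower with exosomes (5.44 to 5.54 untreated, 4.78 to 5.09 with exosomes), as was that of the Sertoli markers (4.45 to 4.84 and 3.90 to 4.10) and of the germ cell markers (−2.73 to −2.49 and −2.93 to −2.86). That of the stromal markers was higher (5.74 to 5.77 and 5.80 to 5.88), and so was that of the endothelial markers (−0.28 to −0.056 and 0.23 to 0.57), while the Leydig (6.24 to 6.41 and 6.22 to 6.46) and macrophage sums (5.62 to 5.68 and 5.50 to 5.68) overlapped between groups. Bright genes weigh most in these sums. The stromal sum was higher although its brightest gene Dcn had −0.096, and Col1a1 (0.58) and Pdgfra (0.49) rose. The macrophage marker Cd68 was −3.45 on exosome 3 but 3.15 and 3.35 on exosome 1 and 2. Of the peritubular markers Tagln (−0.66), Des (−0.62) and Myl9 (−0.49) fell, as did the germ cell marker Prm2 (−0.46). Among the endothelial markers Pecam1 (1.02) and Kdr (0.67) rose and Esam (−1.21) and Cdh5 (−0.45) fell, and among the Sertoli markers Clu fell (−1.02) and Wt1 rose (0.49). Of the macrophage markers Cx3cr1 (−1.94), C1qc (−0.82), C1qa (−0.63) and Adgre1 (−0.52) fell and 0 rose, and the Leydig marker Cyp11a1 fell as well (−0.86). The part of other cell types in the Rab values was not tested, and in RNA from a whole culture fewer cells of a type and less RNA per cell cannot be told apart.

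Early endosome Rab genes changed in both directions. Of 6 tested, Rab20, Rab21 and Rab31 rose, Rab5b and Rab5c fell, and Rab5a missed the test. Over all tested genes 14.6% rose and 29.2% fell, and whether any step differs from these shares was not tested. Rab5 proteins drive the fusion of incoming vesicles into early endosomes, and mammals carry 3 closely related genes for them. Rab5b was 0.29, 0.45 and 0.74 untreated and −0.88, −0.42 and −1.05 with exosomes, so every exosome array was below every untreated one. Its change of −1.28 was the largest of a tested Rab gene in this scaling, and it fell by 1.28 (SE 0.21, adjusted p = 0.011), or 2.42-fold. Rab5c was −0.58, −0.61 and −0.45 untreated and −1.003, −0.87 and −1.12 with exosomes. The groups did not overlap here either, and Rab5c fell by 0.45 (SE 0.12, adjusted p = 0.028). Rab5a was −2.01, −1.88 and −1.99 untreated and −1.57, −1.63 and −1.85 with exosomes, with the exosome arrays all higher, and its change of 0.28 ± 0.13, adjusted p = 0.113 missed the test, while quantile normalization gave 0.48 (adjusted p = 0.023).

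The 3 Rab5 genes were also set against each other within each array, a difference from which any shift of the whole array drops out. Rab5a minus Rab5b was higher on the exosome arrays by 1.56 ± 0.21, Rab5a minus Rab5c by 0.73 ± 0.099, and Rab5b minus Rab5c lower by 0.83 (SE 0.15). In each of these pairs all exosome arrays lay on 1 side of all untreated arrays, and the exact permutation test gave p = 0.10, the smallest that 3 against 3 arrays allow (0.140 adjusted over 14 such pairs). With 3 arrays per group such a test cannot pass 0.05. These values rest on the brightest probe of each gene, and the second probes of Rab5a and Rab5b had changes of −0.20 and −0.69.

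Rab21, which carries integrins into early endosomes, was 1.60, 1.89 and 1.77 untreated and 2.44, 2.38 and 2.33 with exosomes. It rose by 0.63 ± 0.12, adjusted p = 0.013, with all exosome arrays above the untreated ones. Rab31, which links the trans-Golgi network with early endosomes, was 3.33, 3.12 and 3.00 untreated and 3.85, 3.47 and 3.81 with exosomes, again without overlap, and rose by 0.56 ± 0.16, adjusted p = 0.030. For Rab20, a Rab of endosomes and phagosomes, the brightest probe was 1.71, 1.56 and 1.37 untreated and 2.14, 1.91 and 2.49 with exosomes and rose by 0.63 ± 0.18, adjusted p = 0.032, but its other probe fell, as described with the probe pairs. Rab21 missed the test without untreated 3 and exosome 1 (0.61 to 0.64). Rab31 missed it without untreated 2, untreated 3, exosome 1 and exosome 3 (0.49 to 0.55), Rab20 without untreated 2, untreated 3, exosome 1 and exosome 3 (0.48 to 0.65) and Rab5c without untreated 2, untreated 3, exosome 1 and exosome 3 (−0.48 to −0.39).

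**Figure D2:**
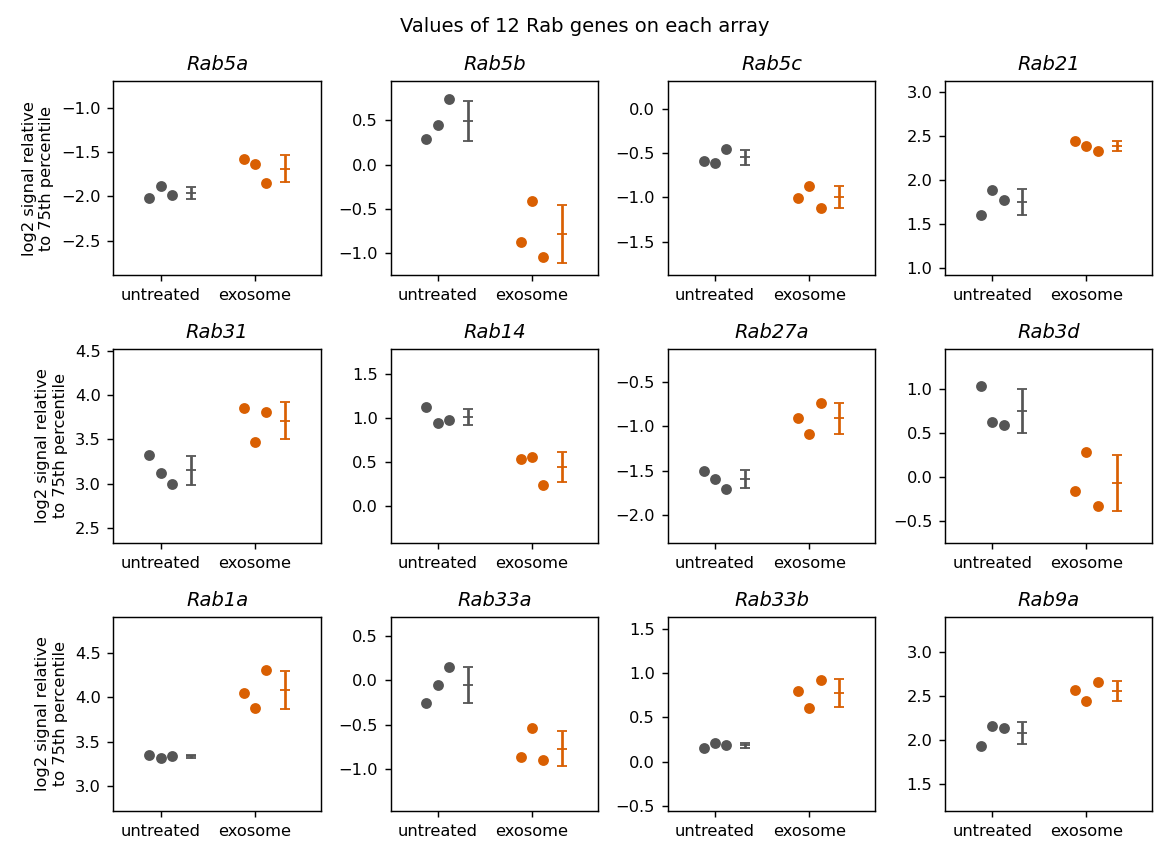
Log2 signal relative to the 75th percentile of the array (y axis, each panel spanning the same range of log2 units) for 12 Rab genes in the 3 untreated arrays (grey) and the 3 exosome arrays (orange), with the mean and SD of each group beside the points. In each of these panels the points of the groups do not overlap, and Rab5b, Rab5c, Rab14, Rab3d and Rab33a lie lower with exosomes while the other panels lie higher.

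The sequences upstream of the 3 Rab5 genes and of Rab21 are shown because this step holds the largest fall, of Rab5b, beside its relatives and a gene that rose. Rab20 and Rab31 of the same step also rose and are not shown. They cover the 250 bases before the RefSeq start, 5′ to 3′ on the gene's strand, from RefSeq (assembly GRCr8), and capitals mark CACGTG (the E-box core) and CCAAT or its reverse complement ATTGG.
Rab5a (GRCr8 chr9:6720877-6721126, plus strand): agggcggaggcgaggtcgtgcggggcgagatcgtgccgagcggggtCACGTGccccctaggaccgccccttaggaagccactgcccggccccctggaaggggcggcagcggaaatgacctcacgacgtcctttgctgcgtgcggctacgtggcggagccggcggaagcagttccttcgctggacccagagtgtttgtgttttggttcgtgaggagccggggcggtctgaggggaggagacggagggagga
Rab5b (GRCr8 chr7:1712737-1712986, minus strand): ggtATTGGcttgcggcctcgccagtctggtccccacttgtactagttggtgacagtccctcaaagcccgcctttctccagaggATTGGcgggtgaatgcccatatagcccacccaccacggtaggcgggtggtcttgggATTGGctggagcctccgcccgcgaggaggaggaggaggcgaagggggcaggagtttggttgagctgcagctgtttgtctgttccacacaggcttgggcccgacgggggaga
Rab5c (GRCr8 chr10:86166450-86166699, minus strand): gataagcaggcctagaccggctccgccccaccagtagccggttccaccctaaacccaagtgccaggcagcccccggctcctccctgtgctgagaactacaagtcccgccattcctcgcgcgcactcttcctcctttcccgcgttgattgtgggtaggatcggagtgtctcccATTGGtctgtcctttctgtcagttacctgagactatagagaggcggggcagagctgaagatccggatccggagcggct
Rab21 (GRCr8 chr7:52814944-52815193, minus strand): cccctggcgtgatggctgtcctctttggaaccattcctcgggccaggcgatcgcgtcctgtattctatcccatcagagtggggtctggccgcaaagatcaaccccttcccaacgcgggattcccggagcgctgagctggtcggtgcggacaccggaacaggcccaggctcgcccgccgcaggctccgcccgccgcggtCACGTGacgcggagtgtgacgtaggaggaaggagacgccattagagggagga
The windows of Rab5a and Rab21 each held 1 CACGTG, at −204 and −52 counted from the start, and 0 CCAAT. Those of Rab5b and Rab5c held 3 and 1 copies of CCAAT and 0 CACGTG. On either strand, CACGTG stood in 5.79% and CCAAT in 34.3% of 27457 promoter windows of this length. A window was found for 45 of the 54 Rab genes, of which 3 held CACGTG, 15 held CCAAT, 35 (77.8%) held the GC box GGGCGG and 1 held TGACGTCA, against 32.4% of all windows for GGGCGG and 1.70% for TGACGTCA. The TATA box TATAAA was in 0 Rab windows and in 13.1% of all, and the median number of CpG was 17 in Rab windows and 6 in all. All windows here include those of genes that were not tested. The windows of tested genes alone were not compared, so these traits may not be particular to Rab genes. CACGTG stood in 2 of 13 windows of genes that rose, 0 of 9 that fell and 1 of 17 that missed the test, and CCAAT in 3, 4 and 5 of these. Rab5a and Rab21 are among the 3 Rab genes with CACGTG, so the windows shown do not stand for the family. The shown windows all hold GGGCGG as well, which is not marked. Whether a motif goes with the direction of change was not tested. The window of Rab14, which fell, may lie inside the gene and is part of these counts. Matches of different motifs may overlap, and a match describes the letters and not a bound site.

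Among Rab genes of the Golgi and the endoplasmic reticulum, Rab1a, Rab6a, Rab18 and Rab33b rose and Rab33a and Rab43 fell. Of 13 tested, 4 rose, 2 fell and 7 missed the test, while 14.6% of all tested genes rose and 29.2% fell. Rab1a, which moves cargo from the endoplasmic reticulum to the Golgi, was 3.35, 3.32 and 3.33 untreated and 4.05, 3.89 and 4.31 with exosomes. The untreated arrays lay close together and below the exosome arrays, and Rab1a rose by 0.75 ± 0.14, adjusted p = 0.012. Its close relative Rab1b, of the same step, was 2.09, 1.98 and 1.86 untreated and 2.33, 2.24 and 2.45 with exosomes, also without overlap, but its change of 0.36 ± 0.12, adjusted p = 0.052 missed the test. Within arrays, Rab1a minus Rab1b was higher with exosomes by 0.38 ± 0.087 (exact permutation p = 0.10). That difference rests on the brightest Rab1b probe, and with its probes averaged the change of Rab1b was −0.011.

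Rab18, a Rab of lipid droplets and the endoplasmic reticulum, was 3.19, 3.23 and 3.19 untreated and 3.63, 3.56 and 3.74 with exosomes. Its exosome arrays were all above its untreated arrays, and it rose by 0.44 ± 0.11, adjusted p = 0.022. Rab33b, a Golgi Rab that also takes part in autophagosome formation, was 0.16, 0.21 and 0.18 untreated and 0.79, 0.61 and 0.93 with exosomes and rose by 0.59 ± 0.12, adjusted p = 0.015. Rab33a, its relative, was −0.26, −0.047 and 0.15 untreated and −0.87, −0.54 and −0.90 with exosomes and fell by 0.72 (SE 0.16, adjusted p = 0.018). Neither gene had overlapping groups. Rab33a minus Rab33b within arrays was lower with exosomes by 1.31 (SE 0.23, exact permutation p = 0.10). That difference rests on the brightest Rab33b probe. The other Rab33b probe had −0.17, and with the probes averaged Rab33b had 0.21 and missed the test. Rab43, another Golgi Rab, was −4.30, −3.94 and −3.92 untreated and −4.68, −4.70 and −4.69 with exosomes and fell by 0.64 (SE 0.14, adjusted p = 0.017), but missed the test after quantile normalization (−0.20).

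Rab6a, of retrograde transport through the Golgi, was −2.79, −2.92 and −2.96 untreated and −1.72, −2.27 and −1.84 with exosomes on its brightest probe and rose by 0.95 ± 0.17, adjusted p = 0.012, with its other probe lower and no change past the test when its probes are averaged (0.12). Rab2a, which acts between the endoplasmic reticulum and the Golgi, had a change of −0.032 ± 0.11 and Rab2b one of 0.31 ± 0.13. Rab6b (0.27 ± 0.15), Rab19 (0.30 ± 0.14), Rab30 (−0.23 ± 0.17) and Rab39a (−0.18 ± 0.13) missed the test as well. Rab1a missed it without untreated 2 (0.74) and Rab6a without untreated 2 (0.93). Rab33b missed it without untreated 2, untreated 3 and exosome 1 (0.58 to 0.61), Rab33a without untreated 2, untreated 3 and exosome 1 (−0.72 to −0.62), Rab43 without untreated 2, untreated 3 and exosome 1 (−0.64 to −0.57) and Rab18 without untreated 2, untreated 3, exosome 1 and exosome 3 (0.39 to 0.46).

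Among recycling Rab genes, Rab15 rose and Rab4b, Rab11b and Rab14 fell. Of 11 tested, 1 rose, 3 fell and 7 missed the test, while 14.6% of all tested genes rose and 29.2% fell. The median change of this step was −0.029. Rab14, which works between the trans-Golgi network and endosomes, was 1.12, 0.94 and 0.97 untreated and 0.53, 0.55 and 0.24 with exosomes. All exosome arrays were lower, and it fell by 0.57 (SE 0.13, adjusted p = 0.020). Rab4b, of rapid recycling from early endosomes, was −3.95, −3.99 and −3.88 untreated and −4.46, −4.47 and −4.62 with exosomes and fell by 0.57 (SE 0.11, adjusted p = 0.013). Its sister gene Rab4a was 1.66, 1.65 and 1.67 untreated and 1.64, 1.57 and 1.78 with exosomes, with overlapping groups and a change of 0.0068 ± 0.11, adjusted p = 0.966.

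Rab11b, of the slow recycling endosome, was well above background on 3 untreated arrays and 0 exosome arrays. It was −4.91, −5.33 and −5.03 untreated and −5.92, −5.76 and −5.89 with exosomes (adjusted p = 0.013 in the fit). In this scaling it was 1.58-fold lower with exosomes when dim values are raised to the array's lowest signal that counts as above background. That value is no lower limit, since the log2 change was −0.33 with normexp and −0.20 after quantile normalization. Rab11b entered the test only through the untreated arrays, where it is higher, so its place among the 12 falls rests on that filter, and with probes well above background on all 6 arrays 16 Rab genes rose and 11 fell. Rab11a, the more widely studied member, was −1.03, −0.83 and −0.59 untreated and −0.81, −0.85 and −0.87 with exosomes and had a change of −0.029 ± 0.14, adjusted p = 0.881. After quantile normalization Rab11b and Rab4b missed the test (−0.20 and −0.14). Within arrays, Rab4a minus Rab4b was higher with exosomes by 0.58 ± 0.11 (exact permutation p = 0.10), but by 0.11 after quantile normalization.

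Rab15, described in endocytic recycling of neurons, was −0.39, −0.74 and −0.93 untreated and −0.20, −0.20 and 0.12 with exosomes and rose by 0.59 ± 0.18, adjusted p = 0.038. Rab8a and Rab8b, which direct vesicles to the cell surface and the cilium, had changes of 0.28 ± 0.11 and 0.25 ± 0.15 and missed the test, and their difference within arrays changed by 0.032 ± 0.12. Rab35, of rapid recycling at the cell surface, had 0.34 ± 0.13, Rab10 had −0.43 ± 0.17 and Rab13, of cell junctions, −0.33 ± 0.17. Rab14 missed the test without untreated 2, untreated 3 and exosome 1 (−0.61 to −0.59), Rab4b without untreated 2 and untreated 3 (−0.60 to −0.54), Rab11b without untreated 3 (−0.73) and Rab15 without untreated 2, untreated 3, exosome 1, exosome 2 and exosome 3 (0.47 to 0.65). Rab15 also missed it with the scan as a random block.

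Among Rab genes of late endosomes and lysosomes, Rab9a, Rab12 and Rab34 rose and Rab24, Rab32 and Rab36 fell. Of 10 tested, 3 rose, 3 fell and 4 missed the test, with a median change of −0.030, while 14.6% of all tested genes rose and 29.2% fell. Rab12, which sends receptors to lysosomes, was 2.52, 2.42 and 2.33 untreated and 3.06, 2.93 and 3.31 with exosomes and rose by 0.67 ± 0.14, adjusted p = 0.015. Rab9a, which returns receptors from late endosomes to the trans-Golgi network, was 1.93, 2.15 and 2.14 untreated and 2.57, 2.44 and 2.66 with exosomes and rose by 0.48 ± 0.13, adjusted p = 0.026. Rab34, which positions lysosomes and takes part in building cilia, was 4.52, 4.37 and 4.35 untreated and 4.83, 4.70 and 4.99 with exosomes and rose by 0.43 ± 0.13, adjusted p = 0.037. In these 3 genes every exosome array was above every untreated one.

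Rab32, which traffics cargo to lysosome-related organelles, was 0.26, 0.29 and 0.38 untreated and −0.38, 0.030 and −0.55 with exosomes and fell by 0.61 (SE 0.17, adjusted p = 0.030). Rab24, linked to autophagy, was 1.76, 1.91 and 1.91 untreated and 1.35, 1.52 and 1.24 with exosomes and fell by 0.49 (SE 0.13, adjusted p = 0.024), and the dim Rab36 was −4.17, −4.27 and −4.05 untreated and −4.76, −4.50 and −5.11 with exosomes and fell by 0.63 (SE 0.18, adjusted p = 0.032), with no overlap in any of these 3. Rab36 missed the test after quantile normalization (−0.17). Rab7a, the central Rab of late endosomes, was 2.42, 2.21 and 2.12 untreated and 2.56, 2.45 and 2.76 with exosomes. Its exosome arrays were all higher, but the change of 0.34 ± 0.14, adjusted p = 0.094 missed the test. Rab7b, Rab29 and Rab38 had changes of −0.21, 0.085 and −0.14. Rab12 missed the test without untreated 2 and untreated 3 (0.63 to 0.67), Rab9a without untreated 2, untreated 3, exosome 1 and exosome 3 (0.43 to 0.52), Rab34 without untreated 2, untreated 3, exosome 1 and exosome 3 (0.35 to 0.43), Rab32 without untreated 2, untreated 3, exosome 1 and exosome 3 (−0.62 to −0.49), Rab24 without untreated 2, untreated 3, exosome 1 and exosome 3 (−0.48 to −0.43) and Rab36 without untreated 1, untreated 2, untreated 3, exosome 1 and exosome 3 (−0.68 to −0.47). Rab34 also missed it with the scan as a random block.

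Of the secretory Rab genes 5 were tested, of which 1 rose and 2 fell, while 14.6% of all tested genes rose and 29.2% fell. Rab27a, which docks late endosomes and lysosome-related organelles at the cell surface and is known for its part in exosome release, was −1.50, −1.60 and −1.70 untreated and −0.90, −1.09 and −0.74 with exosomes. All exosome arrays were higher, and it rose by 0.69 ± 0.14, adjusted p = 0.013. Rab27b was well above background on 0 arrays. Rab3b and Rab3d, of regulated exocytosis, both fell. Rab3d was 1.03, 0.62 and 0.59 untreated and −0.16, 0.28 and −0.33 with exosomes and fell by 0.82 (SE 0.21, adjusted p = 0.023), and Rab3b was −3.06, −3.44 and −3.13 untreated and −4.00, −3.70 and −4.30 with exosomes and fell by 0.79 (SE 0.19, adjusted p = 0.021), but Rab3b missed the test after quantile normalization (−0.42).

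Rab3c was well above background on 1 untreated and 2 exosome arrays, at −5.80, −6.80 and −7.26 untreated and −5.75, −5.69 and −5.82 with exosomes, and its change of 0.87 ± 0.35, adjusted p = 0.087 missed the test. The groups overlapped, with untreated 1 beside the exosome arrays and the other two untreated arrays lower. Rab26, also of secretory granules, had a change of 0.18 ± 0.10. Rab27a missed the test without untreated 2 and untreated 3 (0.64 to 0.69), Rab3b without untreated 2, untreated 3 and exosome 1 (−0.91 to −0.75) and Rab3d without untreated 2, untreated 3, exosome 1 and exosome 3 (−0.90 to −0.69).

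Of the Rab genes outside these steps, Rab23, a restraint on Hedgehog signalling, was −3.35, −3.68 and −3.59 untreated and −2.74, −2.98 and −2.64 with exosomes on its brightest probe and rose by 0.75 ± 0.15, adjusted p = 0.014. Rab28, found at the cilium, was 3.18, 3.19 and 3.15 untreated and 3.71, 3.53 and 3.87 with exosomes and rose by 0.53 ± 0.13, adjusted p = 0.020. Both had all exosome arrays above all untreated arrays. Rab40b, which joins a ubiquitin ligase, had a change of 0.35 ± 0.12, adjusted p = 0.058, also without overlap. Rab23 missed the test without untreated 2 and untreated 3 (0.68 to 0.73) and Rab28 without untreated 2, untreated 3 and exosome 1 (0.52 to 0.54).

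Probes of 1 Rab gene did not always move together. In 9 genes with more than 1 tested probe, all assigned to a single transcript record per gene, both probes were past the test in the same direction for 2 and in opposite directions for 2, 3 more had 1 probe past the test and 2 had none. Counted over the 59 tested Rab probes, 15 rose and 16 fell, beside 11.4% and 31% of all tested probes (42.4% together). Leaving out arrays gave 18 and 16 without untreated 1, 1 and 3 without untreated 2, 2 and 2 without untreated 3, 5 and 5 without exosome 1, 16 and 15 without exosome 2 and 9 and 9 without exosome 3. The shares of all tested probes in these fits are not given. The second Rab5b probe was −1.91, −1.36 and −1.13 untreated and −2.19, −2.32 and −1.97 with exosomes, a change of −0.69 (adjusted p = 0.045), although it missed the test after quantile normalization (−0.50). The second Rab32 probe changed by −0.64, close to the −0.61 of the first, and their difference within arrays moved by 0.030 ± 0.072.

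Rab20 and Rab6a were the genes with opposite probes. The second Rab20 probe was −1.25, −1.04 and −0.92 untreated and −2.13, −1.93 and −2.10 with exosomes and fell by 0.99 (adjusted p = 0.0098), whereas the first rose by 0.63. That of Rab6a was −3.53, −3.29 and −3.14 untreated and −3.82, −4.00 and −4.28 with exosomes and fell by 0.71 (adjusted p = 0.020), whereas the first rose by 0.95. The Rab6a fall missed the test after quantile normalization (−0.34), and the Rab20 fall did not (−0.81). No single direction can be given for these 2 genes.

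In Rab23, Rab33b and Rab5a the second probes had changes of −0.38, −0.17 and −0.20, each with the sign opposite to the brighter probe. Each missed the test, and each was positive after quantile normalization (0.18, 0.31 and 0.020). The second Rab6b probe rose by 0.87 (adjusted p = 0.017) while the brighter one had 0.27. The other 3 Rab1b probes had changes of 0.73, −0.14 and −0.999. With the probes of a gene averaged, 11 Rab genes rose and 12 fell, Rab6a, Rab23 and Rab33b missed the test, and Rab20 turned to −0.18.

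**Figure D3:**
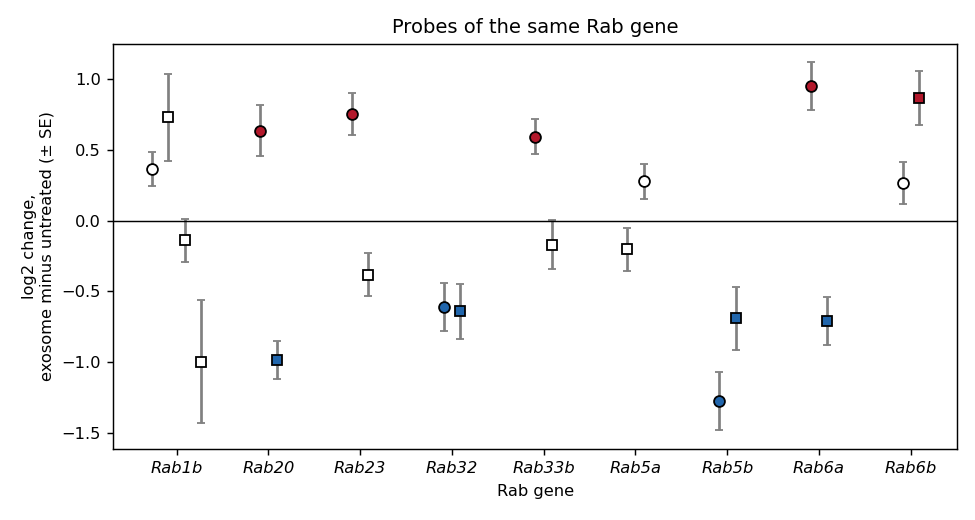
Change of each tested probe of the 9 Rab genes with more than 1 (y axis, log2, exosome minus untreated, with SE bars, n = 3 arrays per group), ordered within a gene by untreated signal. Circles are the brightest probe of the gene and squares the others, red and blue mark probes past the test and open symbols those that missed it. The probes of Rab20 and Rab6a lie on opposite sides of 0, and those of Rab5b and Rab32 lie below it together.

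The counts differed between signal ranges. Of 13 Rab genes with a mean signal above 2, 8 rose and 0 fell (median 0.44), and among all 1574 tested genes in that range 22.5% rose and 10.5% fell (median 0.15). Of 8 Rab genes below −3, 1 rose and 5 fell (median −0.60), beside 3.90% and 38.4% of 3900 genes (median −0.53). Between these, 3 rose and 3 fell of 14 Rab genes from −3 to 0, beside 16.3% and 33.0% of all tested genes in that range (median −0.21). From 0 to 2, 2 rose and 4 fell of 13 Rab genes, beside 26.1% and 19.5% of all tested genes (median 0.12). After quantile normalization the Rab medians in the lowest and highest range were −0.16 and 0.43, and those of all genes −0.080 and 0.14. The part of the signal range in the changes of single Rab genes was not tested.

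**Figure D4:**
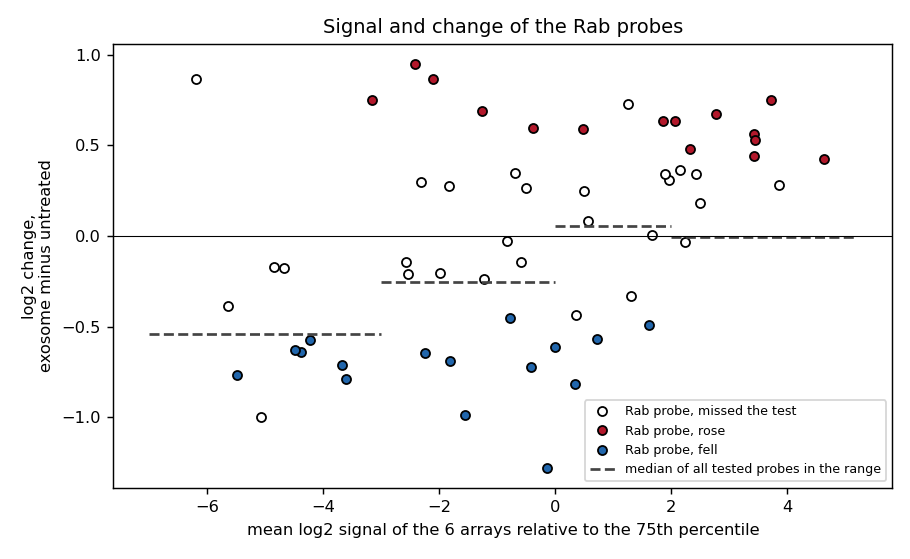
Mean log2 signal of the 6 arrays relative to the 75th percentile (x axis) and log2 change, exosome minus untreated (y axis), of the 59 tested Rab probes. Red probes rose and blue probes fell past the test, open ones missed it, and dashed lines give the median change of all tested probes in 4 signal ranges (−0.54 below −3, −0.25 from −3 to 0, 0.055 from 0 to 2 and −0.0045 above 2). No Rab probe above 2 fell past the test.

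Genes listed as acting on Rab proteins were also measured. Of 77 tested in 4 lists 11 rose and 28 fell, beside the 14.6% and 29.2% of all tested genes, and quantile normalization gave 14 and 10 and median centring 22 and 5. Leaving out arrays gave 9 and 24 without untreated 1, 0 and 4 without untreated 2, 0 and 7 without untreated 3, 1 and 11 without exosome 1, 9 and 31 without exosome 2 and 5 and 20 without exosome 3. For these fits too, the shares of all tested genes are not given. Of the 8 genes for lipid attachment and recycling of Rab proteins, 1 rose and 2 fell. Rabggtb, the catalytic subunit of Rab geranylgeranyl transferase, was 2.58, 2.23 and 2.02 untreated and 3.25, 2.89 and 3.54 with exosomes and rose by 0.95 ± 0.22, adjusted p = 0.018, while Rabggta, the other subunit, was −1.59, −1.56 and −1.54 untreated and −2.12, −1.86 and −1.93 with exosomes and fell by 0.41 (SE 0.12, adjusted p = 0.034). The fall of Rabggta missed the test after quantile normalization (−0.20) and turned to 0.0060 with median centring. Rabac1, a Rab acceptor of the Golgi, fell by 0.52 (SE 0.14, adjusted p = 0.028). Gdi2, which carries inactive Rab proteins through the cytosol, had a change of 0.10 ± 0.14, and Chm, the escort protein of the transferase, −0.033 ± 0.14. Rabggtb missed the test without untreated 2, untreated 3 and exosome 1 (0.82 to 0.94), Rabggta without untreated 1, untreated 2, untreated 3, exosome 1 and exosome 3 (−0.43 to −0.33) and Rabac1 without untreated 2, untreated 3, exosome 1 and exosome 3 (−0.53 to −0.41). Rabggta also missed it with the scan as a random block, and Rabac1 with median centring (−0.11).

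Of 15 tested exchange factors 2 rose and 6 fell, beside 14.6% and 29.2% of all tested genes. After quantile normalization 3 and 1 did, beside 20.2% and 16.1%. Among the falls were those of Hps4 (−1.01 ± 0.18), part of the complex that activates Rab32 and Rab38, Rin3 (−1.05 ± 0.21), an exchange factor of Rab5, and Rab3ip (−0.76 ± 0.17), which activates Rab8. Dennd2d (0.54 ± 0.16) and Dennd6a (0.46 ± 0.14) rose. Hps4 and Rin3 missed the test after quantile normalization (−0.48 and −0.56). Hps4 missed it without untreated 2 (−0.99), Rin3 without untreated 2 and untreated 3 (−1.003 to −0.94), Rab3ip without untreated 2, untreated 3 and exosome 1 (−0.73 to −0.70), Dennd2d without untreated 1, untreated 2, untreated 3, exosome 1 and exosome 3 (0.39 to 0.60) and Dennd6a without untreated 1, untreated 2, untreated 3, exosome 1 and exosome 3 (0.38 to 0.48). Dennd6a also missed it with the scan as a random block, and Rab3ip with median centring (−0.35). Normexp gave −0.40 for Hps4 and −0.43 for Rin3. Hps4 was not well above background on all 6 arrays, so its place among the falls depends on the filter.

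Of 20 tested genes listed as GTPase activating proteins 4 rose and 6 fell, beside 14.6% and 29.2% of all tested genes. After quantile normalization 5 and 3 did, beside 20.2% and 16.1%. Tbc1d10a, which acts on Rab27a and Rab35, was −1.88, −2.24 and −1.80 untreated and −3.33, −2.92 and −3.22 with exosomes and fell by 1.19 (SE 0.17, adjusted p = 0.010), a fall that was kept in all 6 fits without 1 array. Tbc1d25 (−0.71 ± 0.12), which acts on Rab33b, Tbc1d7 (−0.78 ± 0.17) and Tbc1d10c (−0.94 ± 0.21) fell too. Tbc1d31 (1.31 ± 0.25), Tbc1d22b (0.96 ± 0.29), Usp6nl (0.44 ± 0.14), which acts on Rab5, and Sgsm1 (0.69 ± 0.22) rose. A place in the list does not show that a protein acts on a Rab protein. For the genes named without a target, Tbc1d7 and Tbc1d31 among them, such activity was not examined. Tbc1d10c was not well above background on all 6 arrays, so its fall depends on the filter. It was −0.43 with normexp, and Tbc1d10c missed the test after quantile normalization (−0.49). Tbc1d25 missed it without untreated 2 (−0.71), Tbc1d7 without untreated 2, untreated 3 and exosome 1 (−0.76 to −0.73), Tbc1d10c without untreated 2, untreated 3 and exosome 1 (−0.92 to −0.86) and Tbc1d31 without untreated 2 and untreated 3 (1.20 to 1.32). Tbc1d22b missed it without untreated 2, untreated 3, exosome 1, exosome 2 and exosome 3 (0.70 to 1.04), Usp6nl without untreated 1, untreated 2, untreated 3, exosome 1 and exosome 2 (0.34 to 0.48) and Sgsm1 without untreated 2, untreated 3, exosome 1, exosome 2 and exosome 3 (0.48 to 0.78), and these 3 rises also missed it with the scan as a random block. Sgsm1, well above background on 2 untreated and 3 exosome arrays, was 0.020 and missed the test with normexp, and Usp6nl turned to −0.15 with its probes averaged. Median centring ended the calls of Tbc1d25 (−0.30), Tbc1d7 (−0.37) and Tbc1d10c (−0.53).

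Of 34 tested genes listed as effectors 4 rose and 14 fell, beside 14.6% and 29.2% of all tested genes. After quantile normalization 5 and 5 did, beside 20.2% and 16.1%. Sytl4, a granuphilin that binds Rab27 and Rab3 on secretory vesicles, was −3.77, −3.83 and −3.73 untreated and −4.93, −5.28 and −4.87 with exosomes and fell by 1.25 (SE 0.14, adjusted p = 0.0098). Inpp5b, a phosphoinositide phosphatase recruited by several Rab proteins, was −3.82, −3.72 and −3.56 untreated and −4.97, −4.67 and −5.14 with exosomes and fell by 1.23 (SE 0.16, adjusted p = 0.0098). Both kept their call in all 6 fits without 1 array and in all 6 scalings, though at −0.62 and −0.60 with normexp and −0.80 and −0.80 after quantile normalization. Plekhm1, which joins Rab7 to the lysosome fusion machinery, fell by 0.91 (SE 0.16, adjusted p = 0.011) and kept its call in all 6 fits without 1 array, though not with median centring (−0.49). Rab11fip1, which binds Rab11, fell by 0.64 (SE 0.12, adjusted p = 0.012), but missed the test after quantile normalization (−0.12) and without untreated 2 (−0.61).

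The 4 genes of the effector list that rose were Rims3 (1.44 ± 0.35), Rabepk (0.59 ± 0.14), Bicd2 (0.44 ± 0.12) and Golga2 (0.41 ± 0.13). Rabepk is a Rab9 effector, Bicd2 ties Rab6 vesicles to dynein, and the Golgi matrix protein Golga2 binds Rab1. Rims3 belongs to the RIM family, and whether it binds a Rab protein itself was not examined. Rims3 was 0.34, −0.18 and −0.49 untreated and 1.40, 0.68 and 1.90 with exosomes, a wide spread in both groups without overlap. Rims3 missed the test without untreated 2, untreated 3 and exosome 1 (1.25 to 1.41), Rabepk without untreated 2, untreated 3 and exosome 1 (0.55 to 0.61), Bicd2 without untreated 2, untreated 3, exosome 1 and exosome 3 (0.37 to 0.44) and Golga2 without untreated 2, untreated 3, exosome 1, exosome 2 and exosome 3 (0.33 to 0.43), and Golga2 also after quantile normalization (0.37) and with the scan as a random block.

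**Figure D5:**
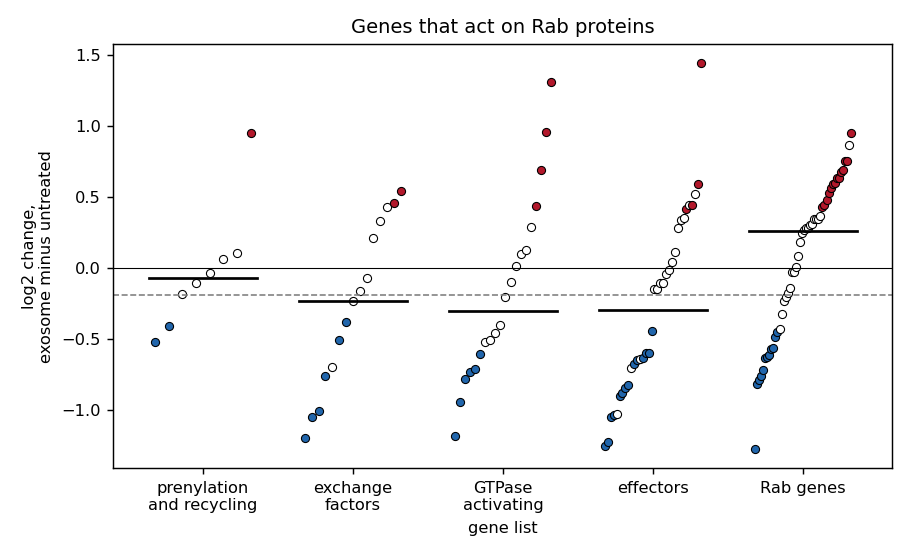
Log2 change, exosome minus untreated (y axis), of each tested gene in 4 lists and of the 48 Rab genes (x axis), ordered by value within a list. The 4 lists hold genes listed as acting on Rab proteins. Red points rose and blue points fell past the test, open points missed it, black bars are list medians and the dashed line is the median of all tested genes (−0.19). The medians of the exchange factors, GTPase activating proteins and effectors were −0.23, −0.31 and −0.30, and that of the Rab genes was 0.26.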

How the data were processed

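RNA of 3 exosome and 3 untreated samples was read on 1 array each. Per the file headers, the authors' deposited array files hold fluorescence intensities of 44254 spots, 42877 of them for genes. Per the submitters' processing notes the software was Agilent Feature Extraction 11.0.1.1, and per the file headers these values were background-subtracted and spatially detrended within the array and not normalized between arrays. The deposited table of all samples holds log2 values; its columns share a median of 5.68 and each had a correlation of 0.996 or more with the array it belongs to. Its normalization is not given in the sources used here, and it served as an alternative. Its changes were close to those after quantile normalization (−1.21 and −1.22 for Rab5b). The like counts of these scalings are therefore not separate results.

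Spots with outlier marks (388 to 572 per array) were left out, spots of 1 probe were averaged as log2, and each array's 75th percentile over gene spots (753 to 1061) was subtracted. A probe was well above background on an array if most of its spots were. Probes well above background on at least 3 arrays (20427, 67.3%) entered 1 limma 3.58.1 fit in R 4.3.3, with adjusted p from Benjamini-Hochberg over all of them. Python 3.11.15, pandas 2.3.3, numpy 2.4.6, scipy 1.17.1 and matplotlib 3.10.9 were used. The procedure was tested on simulated data, and the number of arrays limits its precision. Symbols and promoters came from RefSeq (GRCr8), while the array was designed on rn4, so no positions of probes are given.

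The Rab genes, the steps they were sorted into and the partner lists were chosen with earlier results of these data known. Named were all Rab genes past the test, the brightest of each step, those with several probes and, per partner list, up to 4 of smallest p in each direction, with Gdi2, Chm and the transferase subunits; some genes of the partner lists are counted but not reported here by name. Other Rab genes with printed values were picked after these were seen. Alternatives were other scalings, a normexp background correction (offset 50, on spot medians because the files hold no spot means), filters, blocks, moderation, probe averaging, a 2-fold minimum and leaving out each array.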

Additional observations from a re-analysis of the deposited data

How the results depend on the processing

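The fit used in the text gave 14 rises and 12 falls of Rab genes, 15 and 16 of Rab probes and 11 and 28 of partner genes. Under quantile normalization there were 17 and 7 Rab genes, 18 and 8 Rab probes and 14 and 10 partner genes (higher and lower). With median centring there were 29 and 1 Rab genes, 31 and 2 Rab probes and 22 and 5 partner genes (higher and lower). In the authors' deposited table there were 17 and 7 Rab genes, 18 and 8 Rab probes and 14 and 10 partner genes (higher and lower). With no filter there were 8 and 9 Rab genes, 9 and 11 Rab probes and 4 and 20 partner genes (higher and lower). With the replicate number as a block there were 7 and 8 Rab genes, 8 and 9 Rab probes and 3 and 20 partner genes (higher and lower). With the scan as a random block there were 6 and 24 partner genes (higher and lower). At a 2-fold minimum there were 0 and 1 Rab genes, 0 and 1 Rab probes and 2 and 8 partner genes (higher and lower). Counts within 1.5 times of these came from the other settings. Shares over all tested genes are given only for the fit used in the text, quantile normalization, median centring and the 2-fold minimum. Leaving out 1 array gave 1 to 16 rises and 1 to 12 falls of Rab genes, 1 to 18 rises and 2 to 16 falls of Rab probes and 0 to 9 rises and 4 to 31 falls of partner genes, lowest without untreated 2, untreated 3 or exosome 1. The percentile over probes was added after the data were seen. Signal over background limits Rab11b, for which the exosome arrays give only a bound in the scaling used in the text. Same-numbered replicates did not deviate together (r of −0.086, −0.028 and −0.023), so their numbers were not treated as pairs, and the replicate block lost 11 of the 26 Rab calls. Median centring lost 11, the fit without a filter 10, quantile normalization 5 and normexp 0. Among single values, the sign turned in at least 1 setting for Rab4a (−0.034, −0.034, −0.051 to 0.053 without 1 array), Rab11a (0.066, 0.38, 0.066, 0.020, 0.066, −0.14 to 0.084 without 1 array), Rab7b (0.068, 0.21, 0.069), Chm (0.42, 0.38, 0.42, 0.062, −0.11 to 0.081 without 1 array), Rab39a (0.31, 0.24, 0.31), Rab2a (0.38, 0.047, 0.063, −0.094 to 0.0050 without 1 array), Rab13 (0.084), Rab38 (0.27), Rab30 (0.18), Rabggta (0.0060), Gdi2 (−0.011 to 0.17 without 1 array), Rab20 (−0.18), Rab1b (−0.011), Usp6nl (−0.15), Rab8a minus Rab8b (−0.0037, −0.038 to 0.15 without 1 array) and Rab3b minus Rab3d (−0.042 to 0.15 without 1 array). All of these but Rab20 and the partners Rabggta and Usp6nl missed the test in the first place, and the values moved with the scaling, the array left out or the averaging of probes; beyond those constructions the cause was not tested.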
